A study of Mus musculus with 4 samples.

Results

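The genes described are the protein-coding genes of the mouse cytosolic ribosome, chosen by symbol: Rpl or Rps followed by a number (with a, x, l, al or l1 allowed as an ending), Rplp with a number, or Rpsa. The rule found 83 genes among 50600 genes in the tables, of which 21764 were protein-coding. They comprised 76 main genes, 46 of the large and 30 of the small subunit, and 7 paralogs (Rpl3l, Rpl7l1, Rpl10l, Rpl22l1, Rpl36al, Rpl39l and Rps27l), each the second copy of a main gene. RNA was sequenced in 4 libraries of primary T cells from C57BL/6NJ mice, 1 library per labelled biological replicate and no second group, treatment or genotype in the labels. The file headers call the cells bulk, activated and at 72 h, under a name beginning mmTh0. The labels call the assay total RNA but name a poly(A) protocol.

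The ribosome has a large (60S) and a small (40S) subunit, and each ribosomal protein is in most cases present once per subunit, so a cell needs its main ribosomal protein mRNAs in related amounts. These mRNAs belong to the TOP class: they begin with a C followed by a run of pyrimidines, and their translation is switched by the mTOR pathway, which T-cell receptor stimulation engages. Paralogs are gene copies whose protein can in some cases take the place of the main one. In mouse, Rpl3l is known from heart and skeletal muscle, Rpl10l and Rpl39l from the testis, and Rps27l as a target of p53.

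The TOP sequence is shown for the 5 genes with the longest pyrimidine run among those whose RefSeq start (GRCm38.p6) is a C, and for Rps27 beside its paralog Rps27l, because 5 of these lines show the run at its clearest and the last 2 show a pair that differs in it. Each line holds 15 bases before and 15 bases from the start, 5′ to 3′ on the gene's strand. Capitals mark the pyrimidine run that begins at the start, or, in Rps27l, the start base alone.
Rpl15 (chr14:18270972-18271001, minus strand): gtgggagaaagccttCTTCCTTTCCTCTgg
Rpl35 (chr2:39005117-39005146, minus strand): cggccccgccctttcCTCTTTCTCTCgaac
Rps10 (chr17:27635230-27635259, minus strand): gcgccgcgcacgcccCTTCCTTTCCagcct
Rps18 (chr17:33955651-33955680, minus strand): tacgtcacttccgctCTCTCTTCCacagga
Rps6 (chr4:86857353-86857382, minus strand): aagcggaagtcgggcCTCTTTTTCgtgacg
Rps27 (chr3:90213634-90213663, minus strand): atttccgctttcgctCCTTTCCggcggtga
Rps27l (chr9:66946071-66946100, plus strand): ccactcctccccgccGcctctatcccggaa

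A start window was matched by symbol for 63 of the 83 genes. A C at a RefSeq start followed by at least 4 pyrimidines, read on the gene's strand only, was found in 13 of those 63 (20.6%), against 242 of 8553 (2.83%) of the other detected protein-coding genes with a window. All 13 were main genes: Rpl14, Rpl15, Rpl28, Rpl35, Rpl35a, Rpl38, Rplp2, Rps6, Rps10, Rps15a, Rps18, Rps21 and Rps27. None of the 7 paralogs and none of 69 mitochondrial ribosomal protein genes had it, and 4 of 13 other TOP mRNAs did. With the tract allowed within 5 bases of the start, the shares were 46.0% of the matched genes and 23.6% of the other detected protein-coding genes. The ETS-type motif CCGGAAG, searched on both strands of the 300-base window, occurred in 25 of the 63 (39.7%), against 22.1% of the other detected genes. The mitochondrial ribosomal protein genes had a like share, 26 of 69 (37.7%), so the motif was not particular to the cytosolic list. These are matches of letters at annotated starts, and transcription starts were not measured. The 13 tract genes had a median level of 665 TPM, against 722 TPM in the 43 main genes with a window and no tract.

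Library totals were 58522696, 53569919, 49613182 and 94222415 counts for replicates 1 to 4, and all 7 T-cell markers were detected, with sums between 6763 and 7013 TPM. The labels give all 4 libraries 1 donor identifier, yet Xist stood at 332, 150, 0.877 and 0.392 TPM and the Y-linked Ddx3y at 0.0344, 0.0834, 49.0 and 45.8 TPM in replicates 1 to 4, so the libraries divide into replicates 1 and 2 and replicates 3 and 4. Each pair of libraries differed by a chi-square of 18.9 to 41.4 per degree of freedom over genes, far beyond counting noise, so all were counted separately. The Xist and Y-linked values point to more than 1 animal, but the labels do not say whether each library came from a separate one. A p-value here therefore speaks of the spread among these 4 samples only. Replicate 3 was the lowest library for nearly all of the ribosomal protein genes, and results that rest on it are given with and without it.

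These T cells expressed every main ribosomal protein gene, most of them at a high level. TPM is the count per base of merged exon length, scaled to the same sum in each library, and detection meant 1 TPM or more in all 4 libraries. By this rule 81 of the 83 genes were detected, against 49.4% of all protein-coding genes, and the 2 that were not are the paralogs Rpl3l and Rpl10l. All 76 main genes were detected. Of these, 75 stood at 100 TPM or more in every library and 22 at 1000 TPM or more in every library. The median level of the 76 main genes was 767 TPM, with 713 TPM for the large and 924 TPM for the small subunit. The median over the 7 paralogs was 78.7 TPM. The 19 other TOP mRNAs, mainly translation factors, had a median of 813 TPM, the 78 mitochondrial ribosomal protein genes 81.6 TPM, and detected protein-coding genes outside the list 34.2 TPM. Of the 30 nuclear protein-coding genes of highest TPM, 15 were ribosomal protein genes.

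**Figure D1:**
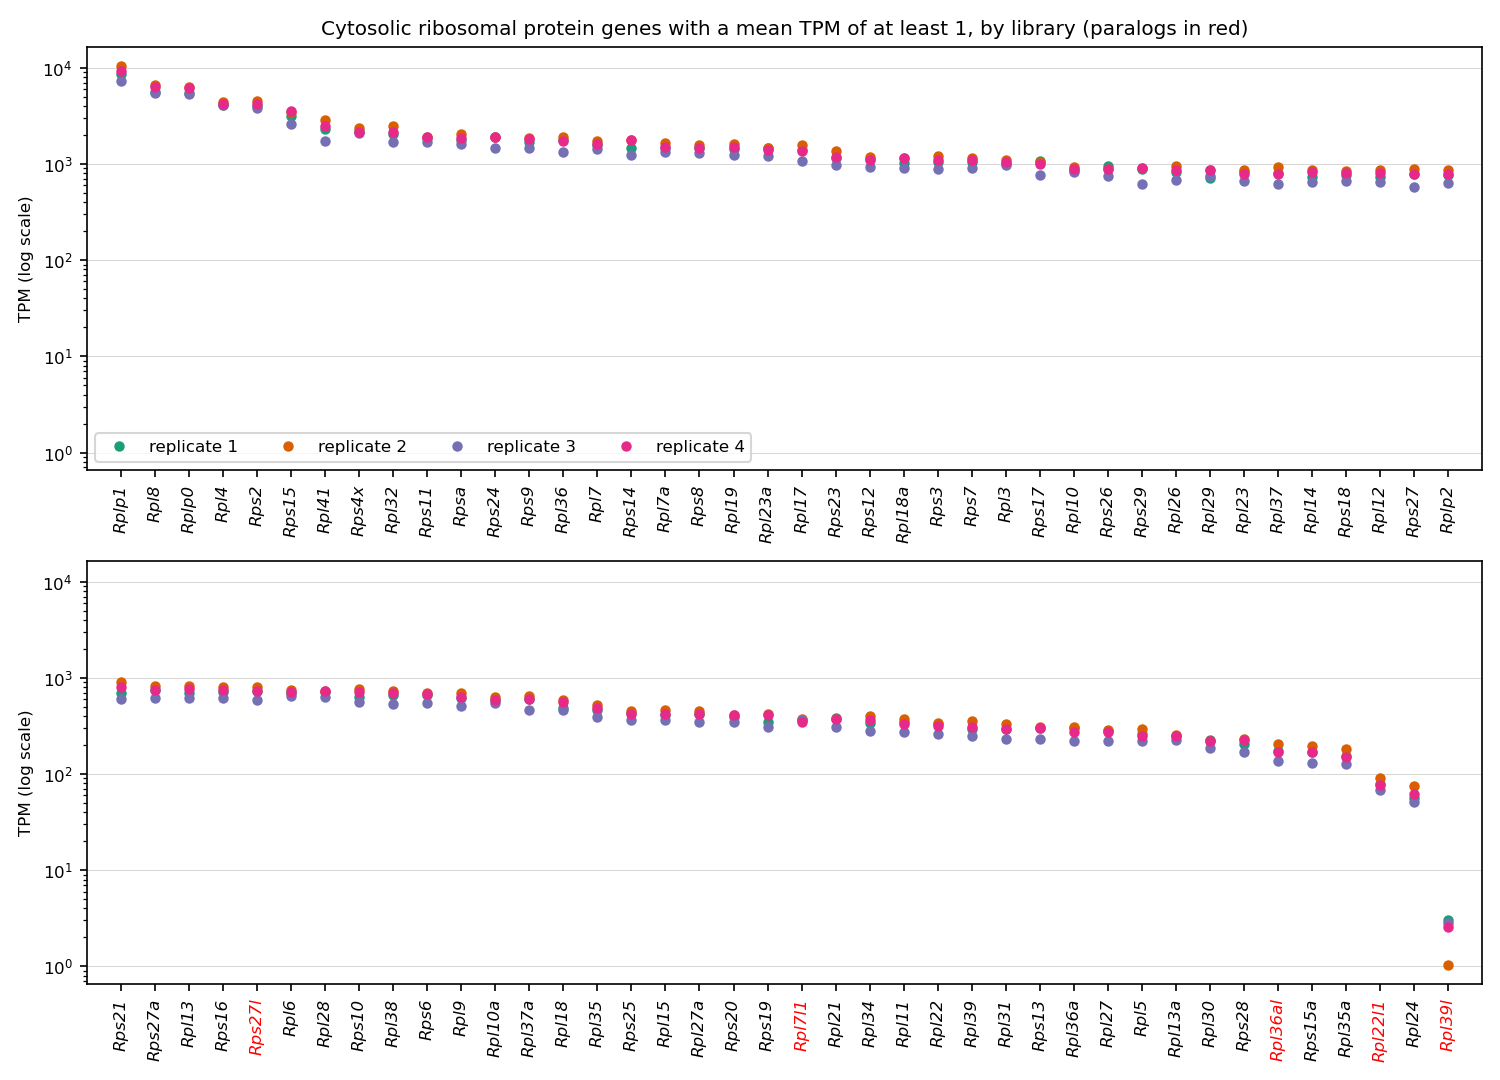
TPM (log scale) of 80 of the 81 ribosomal protein genes with a mean of at least 1 TPM, in order of mean, 1 point per library, paralogs in red. The points of replicate 3 lie lowest and those of replicate 2 highest for most genes, from Rplp1 down to Rpl24, and Rpl39l stands apart at 1.04 to 3.01 TPM.

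The genes of the large-subunit stalk, which recruits the translation factors that hydrolyse GTP, ran from the top to the middle of the range. Rplp1, an acidic protein of the stalk's tip, had the highest level, at 8637, 10370.5, 7256 and 9355 TPM in replicates 1 to 4. Rplp0, the stalk's base, had 5402, 6295, 5321 and 6142 TPM. Rplp2, which pairs with Rplp1 in the same complex, had 776, 858, 628 and 784 TPM. The level of Rplp1 lay above that of Rplp2 in each library on this scale, and with transcript lengths the means were 5320 TPM for Rplp1 and 2239 TPM for Rplp2.

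Other main genes of high level were Rpl8, Rpl4, Rps2, Rps15, Rpl41, Rps4x and Rpl32. Rpl8, a protein near the peptidyl transferase centre, had 5652, 6662, 5430 and 6269 TPM in replicates 1 to 4. Rpl4, which lines the exit tunnel, had 4112, 4411, 4082 and 4178 TPM, one of the narrowest spreads of the list. Means were 4149 ± 306 TPM for Rps2, 3203 ± 422 TPM for Rps15, 2350.0 ± 464.2 TPM for Rpl41, which encodes one of the smallest eukaryotic proteins, 2191 ± 111 TPM for the X-linked Rps4x and 2099 ± 331 TPM for Rpl32 (SD, n = 4). The library values of Rpl4 and Rps2 overlapped, as did those of Rpl41 and Rps4x.

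At the other end stood Rpl24, Rpl35a, Rps15a, Rps28, Rpl30, Rpl13a, Rpl5 and Rpl27. Rpl24, a large-subunit protein at the face between the subunits, had 56.9, 75.0, 50.8 and 62.0 TPM in replicates 1 to 4, the only main gene under 100 TPM in every library. Of the exon bases of Rpl24, 47.0% overlap the transcript Gm28037 on the same strand. Gm28037 had 0 counts in all libraries, and whether reads on the shared bases were counted for either gene was not tested. Reads left out there would make the level of Rpl24 too low. Of the 50-base words of the Rpl24 transcript, 81.7% occur in a transcript of another gene. Means of the others were 153 ± 22.6 TPM for Rpl35a, 166 ± 27.2 TPM for Rps15a, 207 ± 27.8 TPM for Rps28, 213 ± 19.1 TPM for Rpl30, 243 ± 13.0 TPM for Rpl13a, 255 ± 31.2 TPM for Rpl5 and 265 ± 30.0 TPM for Rpl27 (SD, n = 4). Rpl13a overlaps other genes on the same strand at 35.4% of its exon bases, with the same limit as Rpl24. The highest main gene stood 146-fold above the lowest, Rpl24, with the limit given above for its counts.

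The order within the list depended on which length was used. The merged exons of these genes were a median of 2.31 times as long as their shortest CCDS transcript (CCDS is a consensus set of coding annotations), against 1.25 times for other protein-coding genes. With transcript lengths, Rps15a, at 166 TPM by merged exons, stood at 972 TPM, and Rps19, at 375 TPM, stood at 1657 TPM. Rpl24 remained the lowest main gene, at 55.6 TPM from the same counts, and the range was 95.6-fold. Rps20, whose shortest CCDS transcript is the longest of the list at 3706 bases, stood at 390 TPM by merged exons and 257 TPM by transcript. The Spearman correlation of both levels was 0.744 over the 76 main genes, as a description, since both levels come from the same counts. With transcript lengths, 45 of the 100 nuclear protein-coding genes of highest level were ribosomal protein genes, against 30 of 100 by merged exons.

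**Figure D2:**
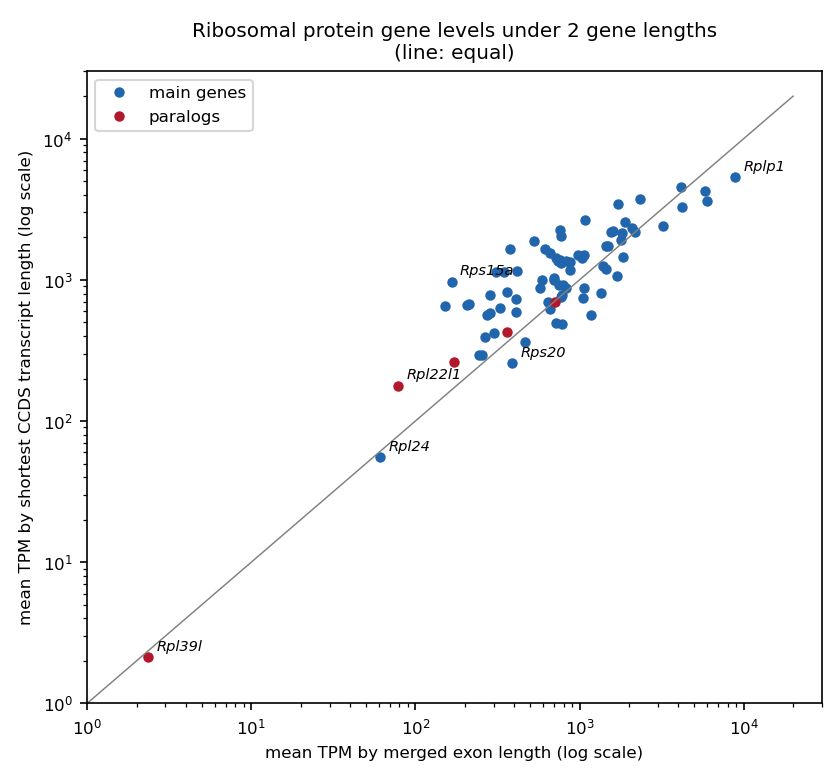
Mean TPM over 4 libraries by merged exon length (x) and by shortest CCDS transcript length (y), both log scales, 1 point per gene with a mean of at least 1 TPM. Rps15a lies far above the line of equality (166 against 972 TPM), Rps20 below it, and Rpl24 stays lowest among the main genes.

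Of all counts, 4.14%, 4.87%, 3.59% and 4.46% fell on the list in replicates 1 to 4, a mean of 4.27 ± 0.540% (SD, n = 4). The share of TPM was 9.34 ± 0.975%. Replicate 2 was the highest and replicate 3 the lowest on both. The share ran from 4.14% to 4.87% in the libraries with Xist and from 3.59% to 4.46% in those with Y-linked counts, and these ranges overlap. Paralogs took 1.31 ± 0.0538% of the counts on the list.

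The 7 pairs fell into 3 kinds: paralogs near the level of their main gene, paralogs at a lower but clear level, and paralogs at or near 0. Main gene and paralog were compared within each library as the difference in log2(TPM + 1), and the exact two-sided sign-flip permutation test cannot go below p = 0.125 with 4 libraries. In 6 of the 7 pairs the main gene was higher in all 4 libraries. The exception was Rps27 and Rps27l.

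**Figure D3:**
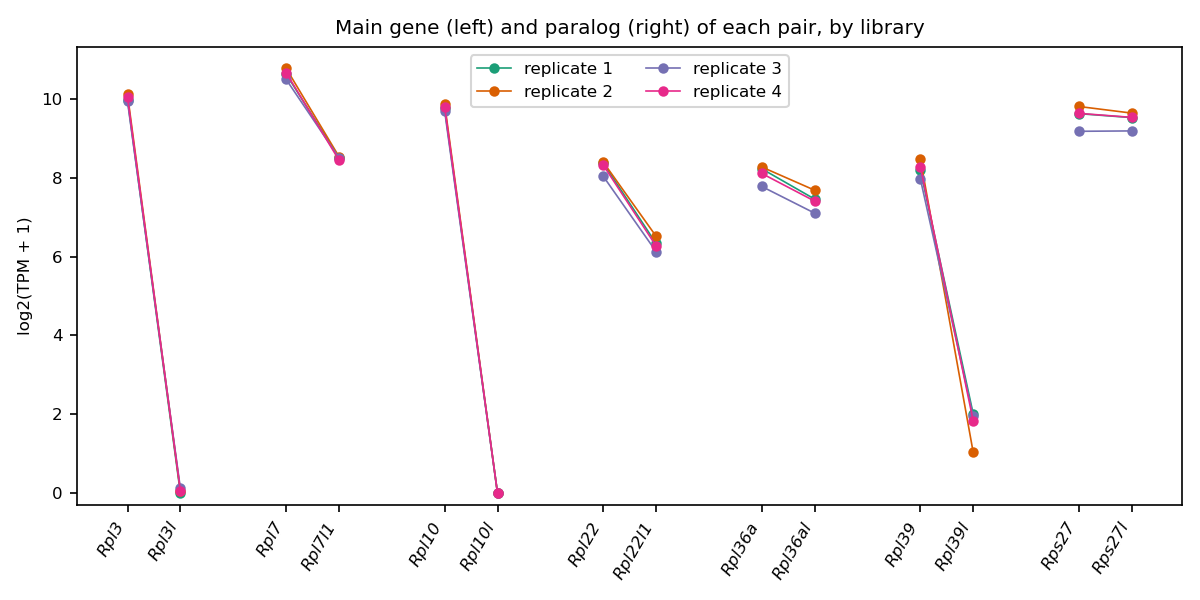
log2(TPM + 1) of the main gene (left) and the paralog (right) of each of the 7 pairs, joined by 1 line per library. The lines are nearly flat for Rps27 and Rps27l, slope down by 0.59 to 2.24 for Rpl36a, Rpl22 and Rpl7, and drop to near 0 for Rpl3 and Rpl10.

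Rps27 and Rps27l encode forms of a zinc-finger protein of the small subunit. Rps27 (chr3:90212522-90213651, minus strand) had 788, 894, 577 and 792 TPM in replicates 1 to 4. Rps27l (chr9:66946086-66949516, plus strand) had 735, 795, 581 and 738 TPM. Rps27 was the higher in replicates 1, 2 and 4 and the lower in replicate 3, with differences of 0.10, 0.17, -0.01 and 0.10, a mean of 0.09 ± 0.07 (log2, SD, n = 4, exact sign-flip permutation p = 0.25). Rps27l was 48.4 ± 1.28% of the sum of both. The exception rests on the merged-exon scale: the mean difference was 0.44 on log2(CPM + 1), with no length, and 0.98 with transcript lengths, and on both Rps27 was higher in all 4 libraries (exact sign-flip permutation p = 0.125). In 98.6% of its 50-base words, the transcript of Rps27 matched a transcript of another gene, against 22.4% for Rps27l, and the part of this in the levels was not tested. The coding sequences are shown whole to let the copies be compared base by base, the pair having the nearest levels: of 255 bases, 61 differ, and the longest shared run is 11 bases. Capitals mark the bases that differ (GENCODE release 21, mm10).
Rps27 (chr3, minus strand): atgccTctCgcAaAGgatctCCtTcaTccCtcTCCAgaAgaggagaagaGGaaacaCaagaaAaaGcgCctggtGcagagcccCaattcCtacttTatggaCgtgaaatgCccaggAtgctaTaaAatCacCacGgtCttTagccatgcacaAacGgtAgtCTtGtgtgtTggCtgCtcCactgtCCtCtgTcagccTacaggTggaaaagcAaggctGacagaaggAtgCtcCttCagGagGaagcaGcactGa
Rps27l (chr9, plus strand): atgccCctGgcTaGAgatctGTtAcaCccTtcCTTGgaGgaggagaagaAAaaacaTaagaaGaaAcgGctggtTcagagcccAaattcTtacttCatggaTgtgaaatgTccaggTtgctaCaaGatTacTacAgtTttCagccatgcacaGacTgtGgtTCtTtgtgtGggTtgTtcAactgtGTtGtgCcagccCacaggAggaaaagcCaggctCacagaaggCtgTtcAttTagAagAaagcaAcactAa

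Rpl36a, an X-linked gene, and Rpl36al were the next nearest. Rpl36a (chrX:134585654-134588062, plus strand) had 298, 308, 218 and 275 TPM in replicates 1 to 4. Rpl36al (chr12:69182731-69184083, minus strand) had 175, 204, 136 and 169 TPM. Each value of Rpl36a lay above every value of Rpl36al, with a mean difference of 0.68 ± 0.07 on the log2 scale (exact sign-flip permutation p = 0.125, the smallest 4 libraries allow). With transcript lengths the difference was 1.10. Rpl36al was 38.3 ± 1.23% of the sum, and both coding sequences have 321 bases that are 87.9% identical.

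Rpl22 and Rpl22l1 are a pair known from lymphocytes: in mice, loss of Rpl22 stops the development of αβ T cells. Rpl22 (chr4:152325742-152334071, plus strand) had 329, 336, 262 and 319 TPM in replicates 1 to 4. Rpl22l1 (chr3:28805436-28807424, plus strand) had 79.6, 90.4, 68.8 and 76.0 TPM, a fold of 3.96 ± 0.240 and a log2 difference of 1.97 ± 0.09 (exact sign-flip permutation p = 0.125). Rpl22l1 made up 20.2 ± 0.978% of the pair. With transcript lengths the difference was 2.67. Rpl7, a large-subunit protein, had 1583, 1752, 1443 and 1622 TPM. Its paralog Rpl7l1 had 364, 370, 363 and 348 TPM, 18.5 ± 1.21% of the sum, with a log2 difference of 2.14 ± 0.11 (exact sign-flip permutation p = 0.125). The coding sequences of Rpl7 and Rpl7l1 are 51.7% identical, the least alike of the 7 pairs.

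Rpl39, which lines the exit tunnel, had 293, 356, 249 and 310 TPM in replicates 1 to 4. Its testis paralog Rpl39l had 3.01, 1.04, 2.85 and 2.56 TPM, from 42, 14, 33 and 59 counts. Both ranges lie far apart, with a log2 difference of 6.53 ± 0.64 (exact sign-flip permutation p = 0.125), and the wide SD comes with replicate 2, where the difference was 7.45. Of the 4 germ-cell markers, 3 had 0 counts in all libraries and their sum was 0.174 to 0.354 TPM. The coding sequences are shown because this pair is near in sequence and far apart in level: it differs at 23 of 156 bases, and the longest shared run is 38 bases. None of the 50-base words of Rpl39l occur in a transcript of another gene. Capitals mark the bases that differ (GENCODE release 21, mm10).
Rpl39 (chrX, minus strand): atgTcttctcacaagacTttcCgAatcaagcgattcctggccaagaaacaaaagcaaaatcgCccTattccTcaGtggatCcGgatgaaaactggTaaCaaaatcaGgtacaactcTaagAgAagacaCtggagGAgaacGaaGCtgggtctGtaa
Rpl39l (chr16, plus strand): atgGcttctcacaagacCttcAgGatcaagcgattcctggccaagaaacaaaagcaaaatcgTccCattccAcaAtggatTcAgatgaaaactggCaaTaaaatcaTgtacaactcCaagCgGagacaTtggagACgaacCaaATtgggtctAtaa

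Rpl3 and Rpl10 stood beside paralogs that were hardly counted. Rpl3, whose loop reaches toward the peptidyl transferase centre, had 1009, 1104, 977 and 1050.2 TPM in replicates 1 to 4. Rpl3l had 0, 1, 2 and 2 counts. Over all libraries that is 241889 counts of Rpl3 and 5 counts of Rpl3l, a fold per exon base of 25484 with a 95% exact Poisson interval of 10920.2 to 78486, covering counting error of Rpl3l only. The sum of the 4 muscle markers was 0.565 to 1.32 TPM. Rpl10, one of the last proteins to join the large subunit, had 863, 932, 825 and 889 TPM. Rpl10l had 0 counts in every library, so that Rpl10 was at least 3919-fold to 8424-fold higher per exon base, against a floor of 3 counts per library. On the log2(TPM + 1) scale the differences were 9.96 ± 0.10 and 9.78 ± 0.07, set largely by the pseudocount of 1.

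Rps4l, the mouse copy of Rps4x, is a transcribed processed pseudogene in release 21 and so lies outside the rule. Rps4x had 2179, 2347, 2085 and 2155 TPM in replicates 1 to 4. Rps4l had 2.53, 4.20, 9.29 and 9.20 TPM, higher in replicates 3 and 4 than in 1 and 2. The 4 main genes on the X chromosome (Rpl10, Rpl36a, Rpl39 and Rps4x) had a median mean level of 590 TPM, and the 72 main genes elsewhere 767 TPM.

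Some ribosomal protein genes have symbols that the rule leaves out. Rps3a1 had 1743 ± 116 TPM and Fau, which encodes a ubiquitin-like domain fused to Rps30, had 1220.3 ± 204.4 TPM (SD, n = 4). Among the genes tied to p53, Rpl5 and Rpl11, which bind Mdm2 together with the 5S RNA, had 255 ± 31.2 and 329 ± 41.6 TPM, with Rpl22 at 311 ± 33.9 and Rps27l at 712 ± 91.7 TPM.

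The list shared features that the symbol rule did not use. Of the 83 genes, 29 (34.9%) hold a small nucleolar RNA gene within their bounds, against 1.64% of 10673 other detected protein-coding genes. These small RNAs guide the modification of ribosomal RNA and are processed from introns. Median levels were 782 TPM in the 29 hosts and 684 TPM in the other 54 genes. Those 54 include all 7 paralogs, so the medians do not compare main genes alone. The genes also share sequence with each other and with pseudogenes: a median of 53.6% of their 50-base words occur in a transcript of another gene, against 0% for the mitochondrial ribosomal protein genes. Pseudogenes named for these genes numbered 283, of which 67 had 0 counts in all libraries and 58 were detected. Together they took 0.378 ± 0.0167% of the counts that the ribosomal protein genes took (SD, n = 4). The 3 with the most counts were Rpl14-ps1 at 109 ± 11.2 TPM, Rps10-ps1 at 72.4 ± 11.6 TPM and Rpl19-ps11 at 47.0 ± 6.80 TPM. Reads that align equally to a gene and its copies may be missing from both, since the counting command set no option for them.

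Between the 4 libraries, the ribosomal protein genes moved together. Deviations were taken as log2 CPM (counts scaled by TMM library sizes) minus the gene's mean over libraries. The median deviation over the 81 genes tested was -0.02, 0.22, -0.28 and 0.07 in replicates 1 to 4, against -0.01, 0.00, 0.01 and 0.01 over 11850 other protein-coding genes. Replicate 3 was the lowest library in 79 of 81 genes (97.5%), against 25.8% of the others, the exceptions being Rpl39l and Rpl29. In other protein-coding genes with transcripts under 500 bases, replicate 3 was lowest in 58.1%. That share was 62.7% from 500 to under 750 bases and 60.9% from 750 to under 1000 bases. In the mitochondrial ribosomal protein genes it was 83.1%. Replicate 2 was the highest in 78 of 81, with Rpl39l and Rps26 among the exceptions. The full order of replicates 3, 1, 4 and 2, low to high, was found in 67 of 81 (82.7%), against 9.59% of the others. Genes measured in the same 4 libraries are not independent of each other.

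**Figure D4:**
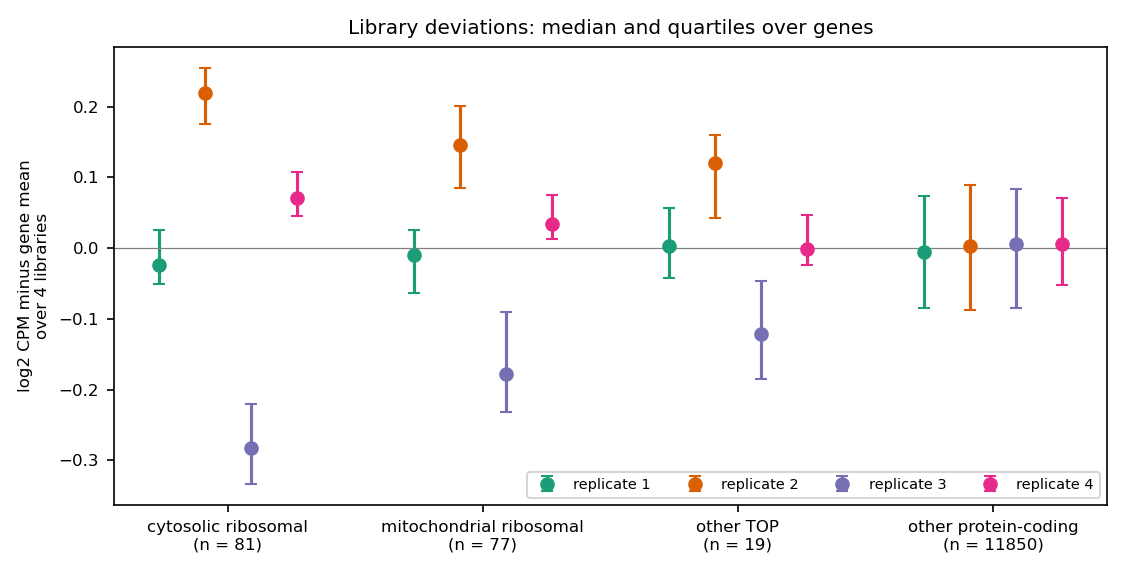
Deviation of each library from the gene's mean log2 CPM, as the median (point) and quartiles (bars) over genes, for the ribosomal protein genes, mitochondrial ribosomal protein genes, other TOP mRNAs and other protein-coding genes. Replicate 2 is highest and replicate 3 lowest in the first group (0.22 and -0.28), with smaller steps in the 2 middle groups and none in the last.

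Mitochondrial ribosomal protein genes had medians of -0.01, 0.15, -0.18 and 0.03 in replicates 1 to 4, and other TOP mRNAs 0.00, 0.12, -0.12 and 0.00. The step from replicate 3 to replicate 2 was a median of 0.50 on the log2 scale for the ribosomal protein genes, a fold of 1.42, against 0.32 for the mitochondrial ribosomal protein genes and 0.21 for other TOP mRNAs. It was 0.50 in both subunits. The median SD over libraries was 0.22 (log2 CPM), against 0.13 over all 13681 genes tested. Among genes of like transcript length the gap was smaller. Under 500 bases the median SD was 0.25, against 0.24 in other protein-coding genes. From 500 to under 750 bases it was 0.23, against 0.19, and from 750 to under 1000 bases 0.19, against 0.17. From 1000 to under 1500 bases it was 0.19, against 0.14.

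Variation between libraries beyond that of genes of like abundance was tested by edgeR's intercept-only fit, the deviance set against a chi-square with 3 degrees of freedom and Benjamini-Hochberg adjustment over 13681 genes. It called 5 of the 81 ribosomal protein genes (Rps29, Rps21, Rps27, Rpl36al and Rpl37), against 0.687% of all genes tested. At an unadjusted p below 0.05 stood 40 of the 81, against 7.01% of all genes tested. Among genes with short transcripts the background was higher. Under 500 bases, edgeR called 3 of 19 ribosomal protein genes and 9 of 148 other protein-coding genes, with 89.5% and 27.7% below an unadjusted 0.05. From 500 to under 750 bases it called 1 of 25 and 7 of 389, with 56.0% and 24.4% below 0.05. Rps29, a small-subunit protein, had 879, 917, 613 and 916 TPM in replicates 1 to 4, with an adjusted p of 0.0070 in edgeR. Rps21, also of the small subunit, had 701, 906, 595 and 799 TPM, with an adjusted p of 0.0093. Rpl37, a large-subunit protein, had 811, 920.0, 617 and 778 TPM, with an adjusted p of 0.044. Rps27 and the paralog Rpl36al had adjusted p-values of 0.016 and 0.043 by the same test. In these 5 genes replicate 3 was the lowest library and replicate 2 the highest. Without replicate 3, edgeR called none of the 81, against 0.627% of all genes tested, and 4 of the 81 stood at an unadjusted p below 0.05, against 5.97% of all genes. The median SD was then 0.12, against 0.12 over all genes.

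The 5 genes with the largest SD were Rpl39l at 0.66, on 14 to 59 counts, Rpl41 at 0.35, Rps29 at 0.32, Rps27 at 0.31 and Rps21 at 0.31 (log2 CPM). The 5 smallest SDs were those of Rpl7l1 at 0.06, Rpl4 at 0.10, Rps4x at 0.12, Rpl13a at 0.12 and Rpl10 at 0.12. The deviations of Rpl7l1 were -0.02, 0.09, -0.05 and -0.03 in replicates 1 to 4, and those of its main gene Rpl7 were -0.04, 0.19, -0.20 and 0.05.

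The difference between libraries was larger in genes with short transcripts, although not in every length bin. From replicate 3 to replicate 2, log2 CPM of the 19 ribosomal protein genes with transcripts under 500 bases was higher by a median of 0.60, against 0.30 in 148 other protein-coding genes of that length. In the 25 genes of 500 to under 750 bases it was 0.53, against 0.29 in the others. In the 12 genes of 1000 to under 1500 bases it was 0.43, against 0.17 in the others. In the 4 genes of 1500 to under 2500 bases it was 0.48, against 0.06 in the others, and in Rps20, the only longer one, it was 0.36, against -0.05 in the others of its bin. Protein-coding genes of 5000 bases or more had -0.21. The median transcript length was 680 bases for the ribosomal protein genes and 2593 bases for other detected protein-coding genes. The Spearman correlation of transcript length with this step was -0.54 over 81 genes, which share the same 2 libraries.

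**Figure D5:**
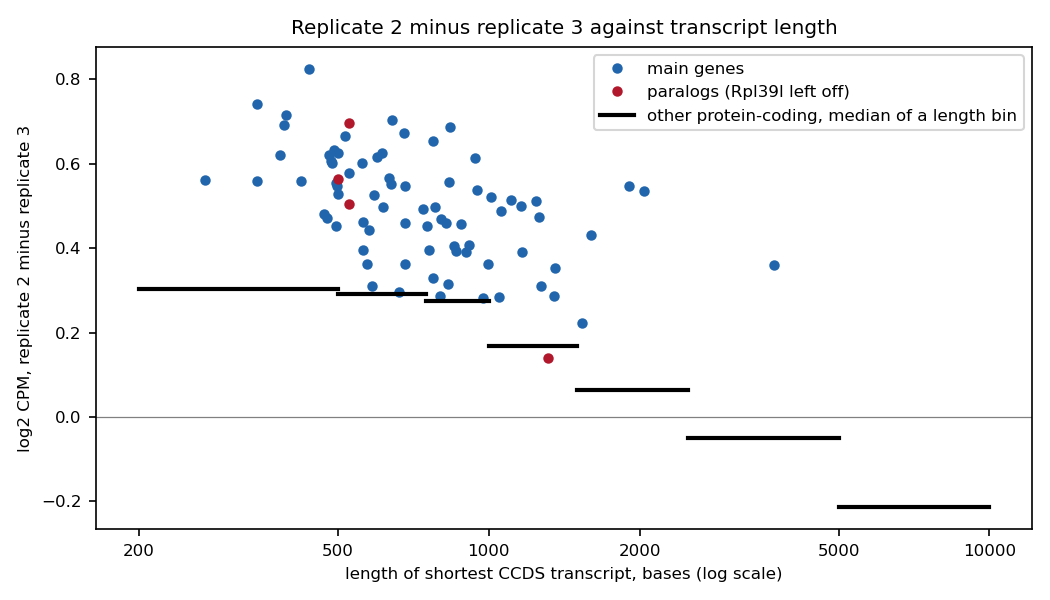
log2 CPM of replicate 2 minus replicate 3 against the length of the shortest CCDS transcript (log scale), 1 point per ribosomal protein gene except Rpl39l, with the median of other protein-coding genes in each length bin as black bars. Most points lie above the bar of their bin, 0.60 against 0.30 under 500 bases, and the few genes of 1500 bases or more stay high (0.48 against 0.06 from 1500 to under 2500 bases) where the bars drop.

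Each library was also given an offset on transcript length, fitted over genes with a transcript length and a mean count of at least 50. With this offset, the median SD of the ribosomal protein genes was 0.09, against 0.11 over all genes. Of the 81, edgeR called none, against 0.921% of all genes tested. At an unadjusted p below 0.05 stood 2 of the 81, against 6.65% of all genes. The step from replicate 3 to replicate 2 was then 0.18 for the ribosomal protein genes and 0.00 for other protein-coding genes of all lengths. Within the short bins the other genes were not all near 0. Under 500 bases the step was then 0.16, against -0.15 in the other protein-coding genes. From 500 to under 750 bases it was 0.16, against -0.06 in the others, and from 750 to under 1000 bases 0.15, against 0.01. Marker sums of other cell types were between 0.0335 and 18.2 TPM in every library, and their part in these differences was not tested.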

How the data were processed

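RNA was measured in 4 T-cell libraries, 1 group with replicate numbers from the labels. The deposited files hold raw counts per gene, 1 table per library. Per the file headers, read pairs were counted with featureCounts 1.4.6-p4 on exons of GENCODE mouse release 13, reverse strand, both ends aligned. No aligner version is named in these sources. The count test was run on counts as deposited. TPM was computed here from counts and merged exon lengths, and again with the shortest CCDS protein-coding transcript of release 21, which also gave symbols and gene types (50376 of 50600 identifiers matched). Gene coordinates are those of the files (mm10, 1-based), and start windows come from RefSeq GRCm38.p6. Totals ran from 49613182 to 94222415 counts, and intervals and floors cover counting error only.

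edgeR 4.0.16 in R 4.3.3 fitted genes passing filterByExpr, with TMM factors and a trended dispersion, and was tested on simulated data. DESeq2 1.42.0 size factors were an alternative. Python 3.11.15 with numpy 2.4.6, pandas 2.3.3, scipy 1.17.1 and Biopython 1.88 was used for the rest. The other alternatives were detection thresholds, pseudocounts, filters, a common dispersion, length offsets and leaving out each replicate. The transcript-length alternatives were chosen after seeing the data.

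The genes named are both genes of the pairs, the stalk genes, the 8 other main genes of highest and of lowest TPM, the 5 of largest and of smallest SD, genes called variable, the left-out symbols, those tied to p53 or on the X chromosome, and the 3 pseudogenes with the most counts. Tract genes, Rps19, Rps20, Rps26, Rpl29 and the genes that stand apart in 1 library were named after their values were seen. Some genes that the rule names are not reported here. The genes and lists were chosen with earlier results of these data known.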

Additional observations from a re-analysis of the deposited data

Results flagged for a closer look

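In 5 of 92 sets of 4 library values, 1 library stood apart from the other 3 by more than Dixon's 95% limit for the gap over the range. By chance about 1 in 20 sets would do so, and the genes share their libraries, so the sets are not independent. In all 5 it was replicate 3, as the lowest: Rps24 at 1459 TPM, Rps29 at 613 TPM, Rpl21 at 311 TPM, Rps13 at 232 TPM and Rpl13a at 224 TPM. Rps24 had 1886, 1888 and 1884 TPM in replicates 1, 2 and 4.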

How the results depend on the processing

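No paired analysis was possible because the labels give 1 group. The share on the ribosomal protein genes was 9.34% of TPM and 11.02% of TPM with transcript lengths, against 4.27% of counts. The 5 genes called variable by edgeR became 0 with a common dispersion (17 at an unadjusted p below 0.05), where 617 of all 13681 genes were called against 94 before, 2 without a filter on low counts, 2 with an offset on exon length and 0 with an offset on transcript length (2 at an unadjusted p below 0.05), where 126 of all genes were called. Leaving out 1 replicate gave 0 to 3 calls, 2 without replicate 1, 1 without replicate 2, 0 without replicate 3 (4 at an unadjusted p below 0.05, with 87 of all 13873 genes called) and 3 without replicate 4. The median SD of 0.22 was 0.14 with the exon-length offset, 0.089 with the transcript-length offset and 0.12 to 0.26 with 1 replicate left out, lowest without replicate 3. The cause was not tested. All 56 alternative values of the pair differences kept their sign, although that of Rps27 and Rps27l ran from 0.06 without replicate 2 to 0.44 on log2(CPM + 1) and 0.98 with transcript lengths, and that of Rpl3 and Rpl3l was 12.86 with a pseudocount of 0.1. The main gene was the higher in all 7 pairs without replicate 3, on log2(CPM + 1) and with transcript lengths. Rpl3l and Rpl10l, at 0 to 2 counts, are limited by depth.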
